A study of Mus musculus with 20 samples.

Results

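The complement and coagulation genes described here are 44 mouse genes of plasma proteins, most of which the liver makes, taken by symbol from a list of complement, coagulation and fibrinolysis factors and found as 44 of the 54532 rows of the deposited expression table. All 44 passed the filter on low values that left 13162 genes for testing. The data are RNA sequencing of livers of C57BL/6 mice and of hepatocyte organoids (Hep-Org), in 20 libraries of 10 groups with 2 libraries each. One group was undamaged liver, and 8 groups were liver at 6, 12, 24, 48 and 72 h and at 7, 14 and 21 d after a 70% partial hepatectomy (PHx), the surgical removal of most of the liver. The labels name freshly isolated hepatocytes as the material of the liver groups, and Hep-Org as hepatocytes embedded in Matrigel, a basement membrane gel, and collected during passage. No age, sex or statement on separate animals or cultures was given, so the p-values below measure the spread between these libraries, which may be technical.

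Complement is a cascade of plasma proteases and binding proteins. The classical pathway (C1, C4, C2) and the lectin pathway (mannose-binding lectins with the proteases MASP-1 and MASP-2) cleave C3, the alternative pathway amplifies that cleavage through factor B and properdin, and the terminal proteins C5 (Hc in the mouse) to C9 assemble into a membrane pore, while factor I, C4b-binding protein, C1 inhibitor and vitronectin restrain these steps. Coagulation is a parallel protease cascade that ends in thrombin (F2), which turns fibrinogen into fibrin; antithrombin, heparin cofactor II, protein C, protein S and tissue factor pathway inhibitor hold it back, and plasmin, made from plasminogen (Plg), dissolves the clot. Hepatocytes are the main source of most of these proteins, and fibrinogen and several complement factors belong to the acute-phase response that interleukin-6 drives in liver.

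The depth recovered from the table was about 13650300 to 41392700 reads per library. Hepatocyte markers were abundant in every liver library, with 8 marker genes summing to 22437 to 75056 FPKM (fragments per kilobase of exon, scaled to library size) after PHx, but markers of other liver cells were present too: 9 Kupffer cell and macrophage markers summed to 131 to 1045 FPKM and 8 endothelial markers to 37.3 to 157. In such bulk samples fewer cells of a type and less RNA per cell cannot be told apart. The 2 undamaged libraries stood apart from each other, as given below where they enter a comparison. All 6 libraries from 48 h to 7 d had the transcript pattern of females (Xist at 13.6 to 23.7 FPKM, the Y-linked Ddx3y listed at 0), whereas the libraries of the other PHx times and of undamaged liver had that of males, so that for those 3 times the time after surgery and the sex pattern cannot be told apart. Both Hep-Org libraries differed in this pattern too, replicate 1 having that of males and replicate 2 that of females.

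In liver at 14 and 21 d after PHx the 44 transcripts covered more than 3 orders of magnitude per length of transcript. The fibrinogen gamma chain gene Fgg led with a mean of 2334 FPKM (4 libraries), followed by Fga at 1777, C3 at 1596, Fgb at 1568 and the vitronectin gene Vtn at 1249.5. At the low end were Cfb, for complement factor B, at 1.24 FPKM and Tfpi, for tissue factor pathway inhibitor, at 1.96. The Cfb and C2 levels are uncertain, since both genes overlap an annotated readthrough transcript and reads shared between genes may not have been counted. C4b, C1ra, C1s1, Kng1 and Kng2 have near-identical copies in the genome and their counts are uncertain for that reason. Summed over all 44 genes, the level was between 14420 and 28769 FPKM in the 16 PHx libraries, 18620 and 63589 in undamaged liver, and 5127 and 2883 in Hep-Org.

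**Figure D1:**
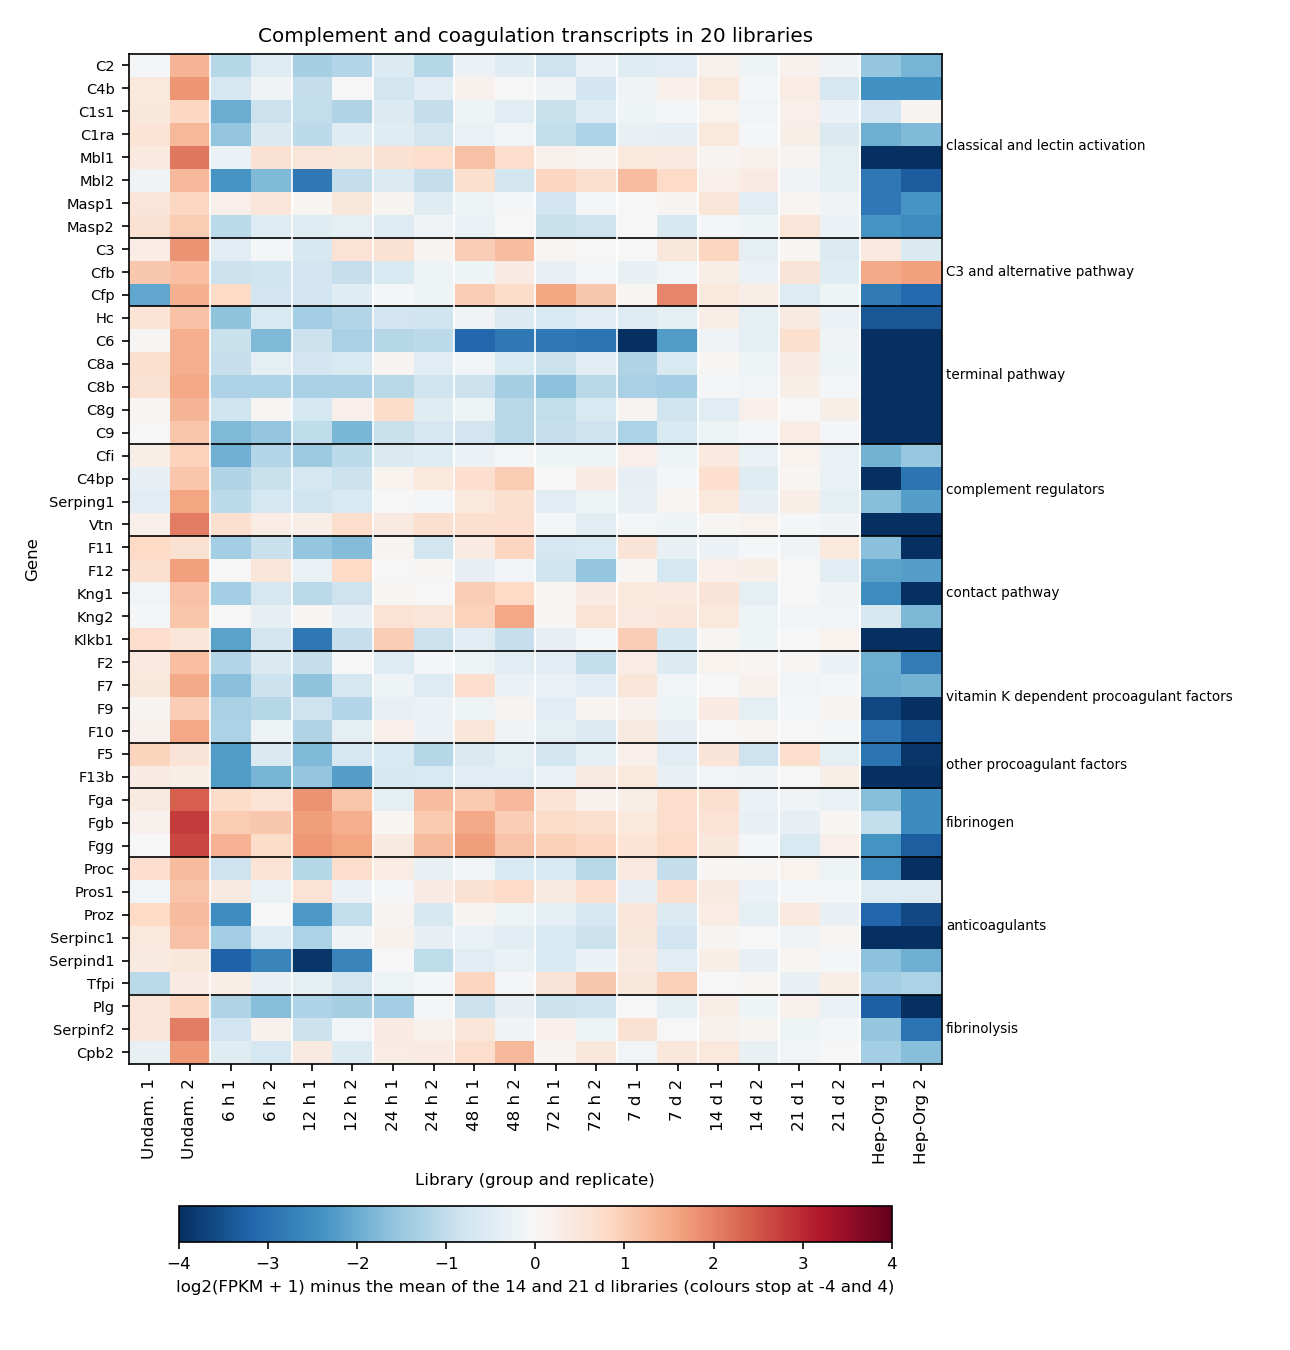
Each cell is the log2(FPKM + 1) of 1 of the 44 genes (rows, grouped by cascade) in 1 of the 20 libraries (columns), minus the mean of that gene over the 4 libraries of 14 and 21 d; blue is lower and red higher, and colours stop at 4 in either direction. Most rows are blue at 6 and 12 h and dark blue in Hep-Org, the 3 fibrinogen rows are red at 6 and 12 h, C6 is dark at 48 h, 72 h and 7 d, and undamaged replicate 2 is redder than replicate 1 in nearly every row.

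Over the 8 times after PHx, 4 of the 44 genes differed (moderated F test of limma with Benjamini-Hochberg adjustment over all tested genes, called where adjusted p was below 0.05 and the fitted time means spanned 1 or more on the log2 scale). Of all tested genes 9.51% did so, so the share among the complement and coagulation genes was close to that background. The 4 were Serpind1, F13b, C6 and Mbl2. The median range over the 44 genes was 1.42 on the log2 scale, beside 0.90 for all tested genes.

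Serpind1 (ENSMUSG00000022766; chromosome 16, bases 17331371 to 17343575, plus strand of GRCm38) encodes heparin cofactor II, an inhibitor of thrombin. In the 2 undamaged libraries it was at 372 and 397 FPKM, and in the first hours after PHx at 29.8 and 45.7 (6 h), 18.6 and 45.2 (12 h), 289 and 142 (24 h). Later pairs of libraries were at 214 and 239 (48 h), 187 and 242 (72 h), 367 and 208 (7 d), 341 and 235 (14 d), 305 and 279.6 (21 d). The 4 libraries of 6 and 12 h lay below every later library, with no overlap, and at 24 h both libraries were above 100 FPKM. The range over the 8 time means was 3.28 on the log2 scale (F = 14.8, adjusted p = 0.00372). Between 6 and 12 h on one side and 14 and 21 d on the other the mean FPKM was 8.33-fold lower (34.8 ± 13.1 against 290.1 ± 44.7, SD, n = 4 each; log2 difference -3.09, SE 0.35, adjusted p = 1.74e-04). The difference was -3.72 and -2.47 on the log2 scale in the first and in the second submission taken alone, and -3.45 to -2.74 with any 1 of the 8 libraries left out.

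F13b (ENSMUSG00000026368; chromosome 1, bases 139501702 to 139523752, plus strand of GRCm38) encodes the carrier subunit of coagulation factor XIII, the enzyme that crosslinks fibrin. In the 2 undamaged libraries it was at 127 and 121 FPKM, and in the first hours after PHx at 20.7 and 26.8 (6 h), 33.6 and 20.8 (12 h), 63.9 and 64.9 (24 h). Later pairs of libraries were at 74.4 and 75.00 (48 h), 83.5 and 130.2 (72 h), 134 and 82.1 (7 d), 92.4 and 91.7 (14 d), 101 and 119 (21 d). The libraries of 6 and 12 h were again the lowest 4, and those of 24 h lay between them and all later ones. The time means spanned 2.16 on the log2 scale (F = 13.1, adjusted p = 0.00527), and the level at 6 and 12 h was 3.95-fold below that at 14 and 21 d (log2 difference -1.96, SE 0.24, adjusted p = 2.70e-04).

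Mbl2 (ENSMUSG00000024863; chromosome 19, bases 30232942 to 30239687, plus strand of GRCm38) encodes a mannose-binding lectin that starts the lectin pathway. In the 2 undamaged libraries it was at 268 and 719 FPKM, and in the first hours after PHx at 56.9 and 84.9 (6 h), 39.2 and 151 (12 h), 201 and 149.7 (24 h). Later pairs of libraries were at 453 and 177 (48 h), 529.6 and 458 (72 h), 697 and 500.3 (7 d), 337 and 366 (14 d), 264 and 228 (21 d). The libraries of 72 h and 7 d, which have the female transcript pattern, were among the highest of the PHx libraries. Those of 6 and 12 h were low, with 1 library of 12 h near those of 24 h. This course had a range of 3.07 on the log2 scale and was called narrowly (F = 5.99, adjusted p = 0.0398). The call was lost without any 1 of 12 of the 16 PHx libraries, namely both of 6 h, 24 h, 72 h, 7 d, 14 d and 21 d, the range then being 2.81 to 4.02 over all 16 omissions. Mbl1, the gene of the other mouse mannose-binding lectin, had a range of 1.08 (adjusted p = 0.733) and was at 109.8, 200.3, 182 and 178 FPKM in the libraries of 6 and 12 h.

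C6 (ENSMUSG00000022181; chromosome 15, bases 4727175 to 4814967, plus strand of GRCm38) encodes a subunit of the membrane pore and had another time of lowest level. In the 2 undamaged libraries it was at 94.97 and 253 FPKM, and in the first hours after PHx at 49.2 and 26.4 (6 h), 49.5 and 36.4 (12 h), 40.6 and 43.6 (24 h). Later pairs of libraries were at 9.41 and 11.9 (48 h), 11.6 and 10.96 (72 h), 4.17 and 18.7 (7 d), 82.2 and 71.01 (14 d), 144 and 83.2 (21 d). All 6 libraries from 48 h to 7 d, at most at 18.7 FPKM, lay below the other 10 PHx libraries, which were at least at 26.4. The range was 3.45 on the log2 scale (F = 9.70, adjusted p = 0.0118), and these are the 6 libraries with the female transcript pattern.

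**Figure D2:**
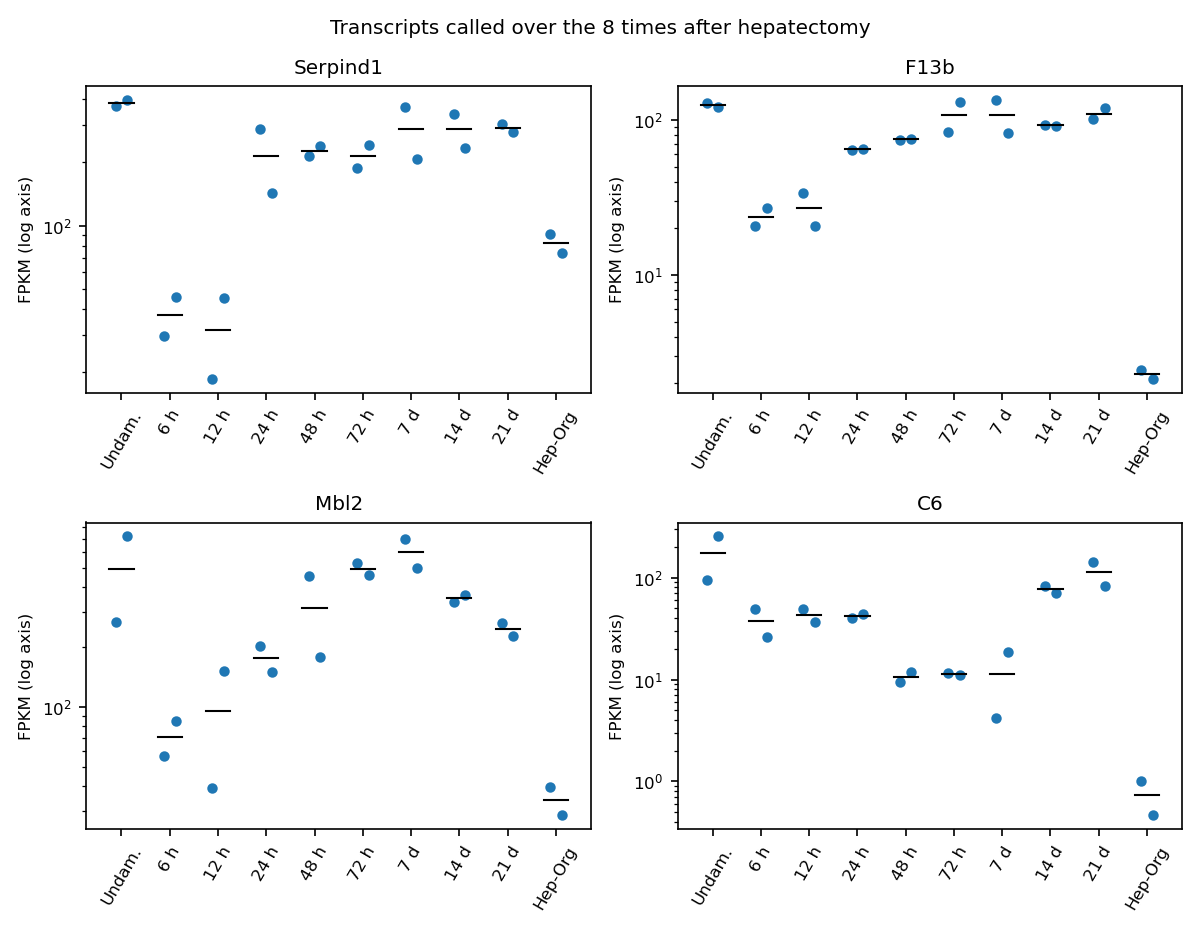
FPKM (log axis) of Serpind1, F13b, Mbl2 and C6 in each library (points) by group, with the mean of the 2 libraries of a group as a line. Serpind1 and F13b are lowest at 6 and 12 h among the PHx times, Mbl2 has its highest PHx mean at 7 d, and C6 is lowest in the 6 libraries from 48 h to 7 d; all 4 are low in Hep-Org.

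The early and late times were then compared directly, 6 and 12 h (4 libraries) against 14 and 21 d (4 libraries), 2 groups of male pattern whose difference of means uses neither the undamaged libraries nor the 6 of female pattern, although the spread behind each SE and p comes from all 20 libraries. Here limma called 16 of the 44 genes lower early and none higher (adjusted p below 0.05 and a log2 difference of 1 or more), with 7.07% of all tested genes lower and 6.7% higher. At an unadjusted p below 0.05, 24 were lower and 2, Fgb and Fgg, higher, but the share of all tested genes at that threshold was not counted. The median difference of the 44 genes was -0.80 on the log2 scale, beside 0.03 for all tested genes, and 36 of the 44 were on the lower side. The early libraries lay entirely below the late ones for 22 genes and entirely above for 3, beside 16.4% and 15.1% of all tested genes. The number called depended on single libraries of the first submission: it was 9 without replicate 1 of 6 h, 10 without that of 12 h, 8 without that of 14 d and 9 without that of 21 d, and 6 genes (Mbl2, C8b, C9, Cfi, F13b and Serpind1) were called whichever library was left out. Rescaling each library to the same FPKM sum gave 26 lower, beside 13% of all tested genes, whose median moved from 0.03 to -0.24. In a fit of only the 16 PHx libraries, added after the data were seen, 15 of the 44 were called lower and 2, Fgb and Fgg, higher, beside 7.42% and 7.08% of 12416 tested genes; F5 was no longer called.

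Among the activators of the classical and lectin pathways 3 of 8 were lower early. The protease gene C1s1 was at 32.3, 70.8, 65.5 and 55.6 FPKM in the libraries of 6 and 12 h and at 144, 119, 150.4 and 109 in those of 14 and 21 d, without overlap (log2 difference -1.25, SE 0.30, adjusted p = 0.00925). C2, for the protease subunit of the classical C3 convertase, had a log2 difference of -1.04 (SE 0.29, adjusted p = 0.0194), and Mbl2 one of -1.99 (SE 0.46, adjusted p = 0.00788). The remaining 5, C4b, C1ra, Mbl1, Masp1 and Masp2, were not called, and Mbl1 and Masp1 were on the higher side at 0.32 and 0.30, a sign that turned on rescaling to the same sum.

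None of the 3 genes around C3 was called between early and late times. C3 itself, the protein on which the 3 activation pathways meet, differed by -0.13 on the log2 scale (SE 0.47, adjusted p = 0.871), with 1096, 1438, 949 and 2227 FPKM early and 2691, 1119, 1558 and 1014 late. The 2 submissions gave opposite signs for it, -1.01 and 0.75. Cfb was at 0.200, 0.238, 0.272 and 0.136 FPKM early and 1.58, 0.792, 2.06 and 0.548 late, without overlap, but at such levels the addition of 1 before the logarithm shrinks a difference, and -0.84 (adjusted p = 0.0126) missed the threshold of size. Later pairs up to 7 d were at 0.411 and 0.873 (24 h), 0.938 and 1.72 (48 h), 0.763 and 1.07 (72 h), 0.764 and 1.01 (7 d). Cfp, the gene of properdin, which stabilises the alternative convertase and is made largely by leukocytes, differed by -0.30 (adjusted p = 0.761).

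Of the 6 terminal pathway genes 4 were lower early: Hc, C6, C8b and C9. C9, which forms most of the pore wall, was at 115, 133, 192 and 110.3 FPKM at 6 and 12 h and at 339, 375, 481 and 383 at 14 and 21 d (log2 difference -1.54, SE 0.37, adjusted p = 0.00942). The C8 beta chain gene C8b was at 93.2, 91.9, 88.3 and 89.5 early and at 209, 203, 261 and 212 late, the 4 early values lying within 5 FPKM of each other (log2 difference -1.27, SE 0.25, adjusted p = 0.00347). Hc, for C5, had a log2 difference of -1.19 (SE 0.29, adjusted p = 0.00975). That of C6 was -1.20 with an adjusted p of 0.0498, a call lost without any 1 of 7 of the 8 libraries (all but replicate 1 of 6 h). The other 2 chains of C8 had smaller differences, -0.66 for C8a (adjusted p = 0.113) and -0.32 for C8g (adjusted p = 0.640).

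Of the 4 complement regulators only Cfi, the gene of the protease factor I that inactivates C3b and C4b, was called. The level was 101, 168, 141 and 185 FPKM early and 503, 317, 424 and 320.1 late, without overlap (log2 difference -1.40, SE 0.30, adjusted p = 0.00470). Undamaged liver was at 457 and 734, and the times between at 257 and 273 (24 h), 327 and 375 (48 h), 343 and 342 (72 h), 443 and 333 (7 d), so that the 24 h libraries already lay above the early ones. C4bp and Serping1, for C4b-binding protein and C1 inhibitor, also had non-overlapping libraries but adjusted p-values of 0.0858 and 0.166. Vtn stood on the other side: all 4 early libraries (1932, 1544, 1487 and 2016 FPKM) were above the 4 late ones (1292, 1368, 1205 and 1133), by 0.47 on the log2 scale (adjusted p = 0.381), and its sign turned on rescaling to the same sum.

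On the coagulation side, the contact pathway had 2 of 5 genes lower early, F11 and the plasma prekallikrein gene Klkb1. Klkb1 was at 6.003, 17.9, 3.28 and 15.4 FPKM early and 31.3, 26.6, 29.9 and 33.4 late (log2 difference -1.67, SE 0.52, adjusted p = 0.0308), and F11, for factor XI, at 13.9, 19.7, 12.1 and 10.6 and 31.8, 36.01, 34.1 and 50.1 (log2 difference -1.39, SE 0.49, adjusted p = 0.0499). The Klkb1 call was lost without any 1 of 6 of the 8 libraries (all but the replicates 2 of 6 and 12 h), and the F11 call without any 1 of the 8. Kng1, for the kininogen cleaved by kallikrein, was at 369, 598, 452 and 538 early and 1354, 736, 948 and 853 late (log2 difference -0.98, adjusted p = 0.0987). The times between had 993 and 941 (24 h), 1883 and 1662 (48 h), 973 and 1189.7 (72 h), 1266 and 1231 (7 d), the 48 h pair standing above all other PHx libraries. Its paralogue Kng2 differed by -0.16 and F12, for factor XII, by 0.25, the F12 sign turning on rescaling to the same sum.

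Of the 4 procoagulant proteases that need vitamin K, F7 and F9 were lower early. F9, for the factor deficient in haemophilia B, was at 39.9, 44.7, 55.9 and 43.98 FPKM at 6 and 12 h and 126, 78.00, 96.8 and 107 at 14 and 21 d, without overlap (log2 difference -1.12, SE 0.27, adjusted p = 0.00956). The pairs between were 80.9 and 85.5 (24 h), 87.6 and 108 (48 h), 72.4 and 108 (72 h), 113 and 89.1 (7 d), all above the early libraries. F7, for the protease that starts coagulation with tissue factor, had a log2 difference of -1.21 (SE 0.33, adjusted p = 0.0172). The prothrombin gene F2 and F10 differed by -0.68 and -0.76 and were not called. Both other procoagulant genes were lower, F13b as given above and F5, for the cofactor of factor Xa, with a log2 difference of -1.31 (SE 0.45, adjusted p = 0.0452). The F5 difference was -2.60 and -0.03 in the first and the second submission, so that the second alone showed almost none.

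Among 6 anticoagulants Serpind1 alone was called. Serpinc1, the gene of antithrombin, which inhibits thrombin as well, was at 92.3, 167, 97.8 and 215 FPKM early and 255, 236, 214 and 248 late, with 1 early library inside the late range (log2 difference -0.82, SE 0.36, adjusted p = 0.104). Proz, for the protein that helps inhibit factor Xa, was at 10.7, 65.2, 12.2 and 32.2 early and 78.5, 48.03, 84.9 and 52.1 late; its difference of -1.43 had an adjusted p of 0.0514 and was -2.73 and -0.12 in the first and second submission. The protein C gene Proc differed by -0.18, Pros1 by 0.11 and Tfpi by -0.29, none with an adjusted p under 0.5. The Pros1 sign turned on rescaling to the same sum.

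Plg, for plasminogen, was the gene called among the 3 of fibrinolysis. It was at 220.5, 155, 215 and 201 FPKM early and 608, 452, 564 and 419.7 late, 2.58-fold lower and without overlap (log2 difference -1.36, SE 0.35, adjusted p = 0.0136). Between these times it was at 196 and 479 (24 h), 279 and 405 (48 h), 279.6 and 289.6 (72 h), 502 and 381 (7 d), with 1 library of 24 h still as low as the early ones. The plasmin inhibitor gene Serpinf2 and Cpb2, for the carboxypeptidase that protects fibrin from plasmin, differed by -0.39 and -0.34 and were not called.

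Mitochondrial transcripts and those of other cells moved between the same libraries. The mitochondrial share of reads was 20.9%, 40.7%, 12.6% and 23.0% in the libraries of 6 and 12 h and 4.13%, 5.64%, 4.28% and 8.41% in those of 14 and 21 d, without overlap. Of 5 erythroid markers 4 were higher early (summed 136 to 7089 FPKM against 36.8 to 168), of 6 neutrophil markers, 1 of which passed the filter only through the early libraries, 2 (54.6 to 816 against 3.09 to 70.4), 1 of 8 endothelial (46.3 to 157 against 38.7 to 58.3) and 1 of 3 tested platelet markers, and of 9 Kupffer cell and macrophage markers 1 was lower (131 to 253 against 230.2 to 451). Itga2b, 1 of the 3 tested platelet markers, passed the filter only through the early libraries and was not called. Of 8 hepatocyte markers Cps1 was lower and Tat higher, and their sum was 22437 to 40810.4 FPKM early and 38666 to 75056 late. The part of these differences in the result for the 44 genes was not tested. Within the first submission alone the median log2 difference of the 44 genes was -1.19 and within the second -0.33, and 35 genes had the same sign in both.

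**Figure D3:**
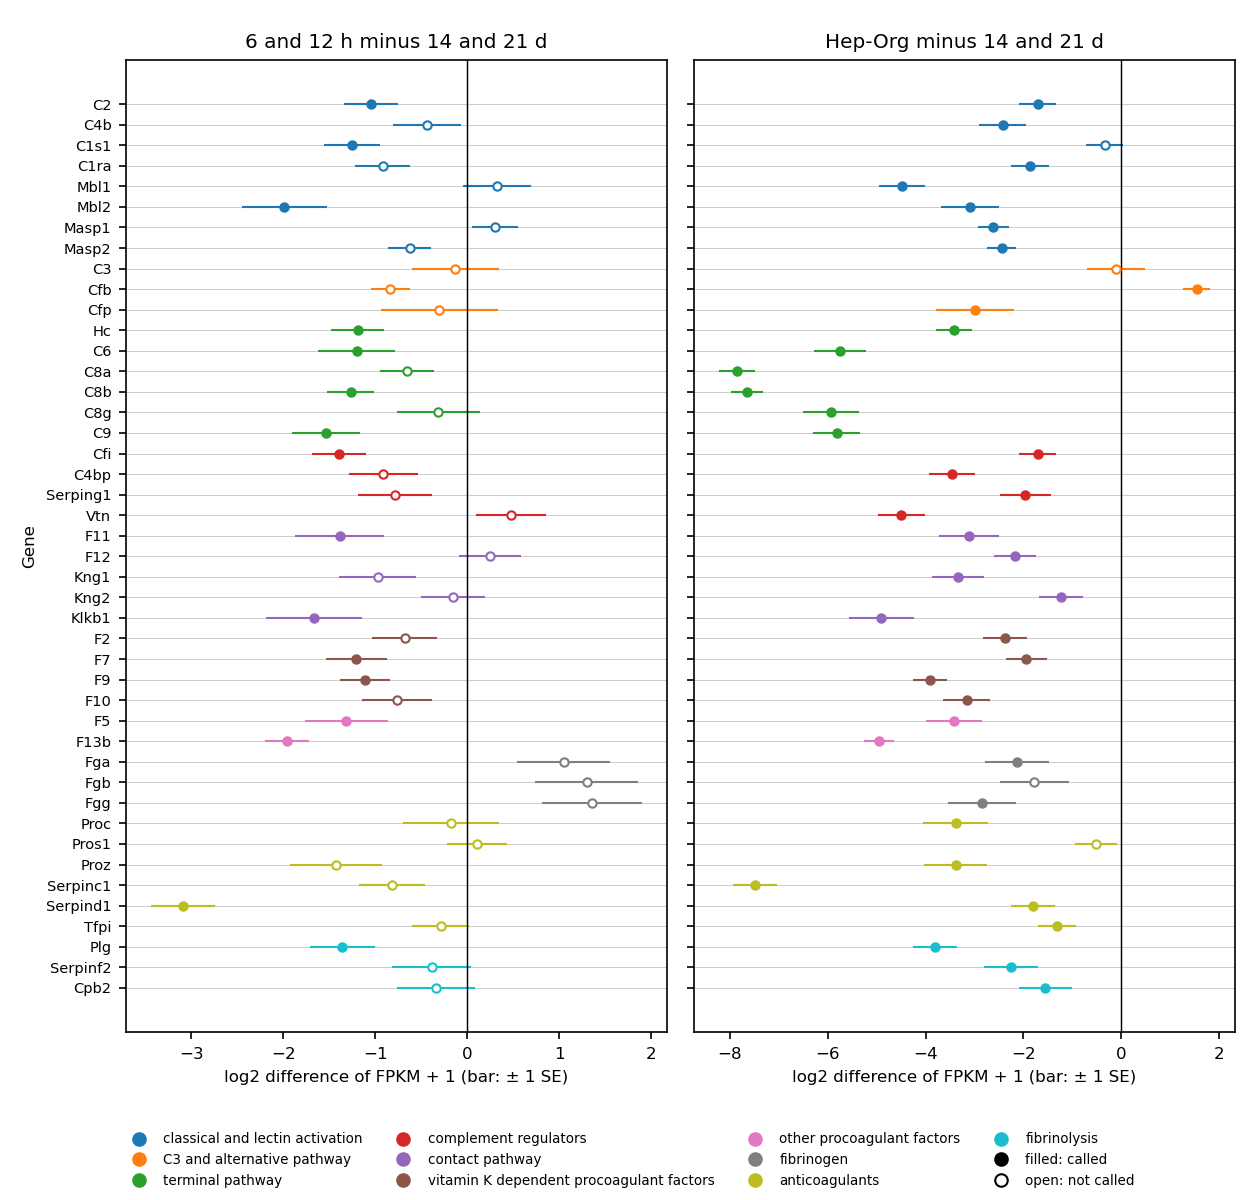
Fitted log2 difference of FPKM + 1 with 1 standard error for each of the 44 genes, coloured by cascade, between 6 and 12 h and 14 and 21 d (left) and between Hep-Org and 14 and 21 d (right); filled points are called and open points are not. On the left 16 filled points lie left of 0, Serpind1 farthest, with the 3 fibrinogen points, open in this fit of all 20 libraries, on the right; on the right 39 filled points lie left of 0 and Cfb right of it. The horizontal scales differ.

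The 3 fibrinogen chains, present in equal numbers in each molecule, lay on the higher side early, unlike most of the coagulation genes, and whether they passed the test depended on the libraries in the fit. They lie together on chromosome 3 between bases 83007724 and 83049863 of GRCm38 (42.14 kb). Their sequences upstream of the start are shown because they were the 3 genes with the largest differences on the higher side early, and because the fibrinogen promoters are known targets of interleukin-6 signalling, C/EBP and HNF1 factors. Each was read 5′ to 3′ on the gene's own strand from RefSeq's promoter table for GRCm38.p6, up to the start of the gene; for Fga the last 77 bases before the RefSeq start are left out because GENCODE M21 counts them as exon. Capitals mark matches, on either strand, to CTGGGAA (the type II interleukin-6 element), TTGCNNAA (a C/EBP motif) and GTTAAT (the core of the HNF1 motif). The first sequence is chr3:83007474-83007723 (plus strand), the next chr3:83025903-83026075 (plus strand) and the last chr3:83049864-83050113 (minus strand).
Fgg: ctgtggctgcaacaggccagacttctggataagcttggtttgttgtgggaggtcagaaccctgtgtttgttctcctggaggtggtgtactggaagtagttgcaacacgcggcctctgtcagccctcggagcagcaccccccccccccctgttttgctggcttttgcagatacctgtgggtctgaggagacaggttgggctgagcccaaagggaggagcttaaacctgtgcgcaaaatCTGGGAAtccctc
Fga: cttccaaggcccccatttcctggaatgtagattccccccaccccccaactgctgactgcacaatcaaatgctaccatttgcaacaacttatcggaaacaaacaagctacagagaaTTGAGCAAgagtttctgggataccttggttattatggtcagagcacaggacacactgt
Fgb: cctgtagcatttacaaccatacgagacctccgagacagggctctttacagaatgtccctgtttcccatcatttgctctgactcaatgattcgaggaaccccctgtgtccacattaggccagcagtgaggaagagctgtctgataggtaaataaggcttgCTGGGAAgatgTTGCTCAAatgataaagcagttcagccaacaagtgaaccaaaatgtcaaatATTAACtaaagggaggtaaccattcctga

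The Fgb window holds matches to all 3 motifs, CTGGGAA at 91 to 85, TTGCTCAA at 80 to 73 and the reverse complement of the HNF1 core at 29 to 24 bases before the start. Fgg holds CTGGGAA at 13 to 7 bases before its start, and Fga holds TTGAGCAA at 135 to 128 bases before its RefSeq start, which lies 77 bases beyond the end of the sequence printed; a match to the HNF1 core at 43 to 38 bases before that start falls in the stretch left out. Such matches also occur in many other promoters and do not show a site. Of the 44 genes 35 had a promoter in the table, 38 promoters in all. In the 250 bases before the start, 6 of these (15.8%) held CTGGGAA, 9 (23.7%) TTGCNNAA and 11 (28.9%) GTTAAT. Over all 32851 promoters the shares were lower, at 9.10%, 9.56% and 6.43%. Whether the shares differ was not tested.

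Fgg was at 5862, 3755, 7530.0 and 6707 FPKM in the early libraries and 3115, 2141, 1492 and 2588 in the late ones. The pairs between were at 2891 and 5418 (24 h), 7188 and 4952 (48 h), 4338 and 3965 (72 h), 3275 and 3846 (7 d). All 4 early libraries were above all 4 late ones, and the 24 h libraries were far apart. The difference of 1.36 on the log2 scale (SE 0.55) did not pass the test in the fit of all 20 libraries (adjusted p = 0.0816), whose spread includes the undamaged pair at 2246 and 14494 FPKM. For Fgb the values were 3054, 3188, 4803 and 4159 FPKM early and 2260.2, 1235, 1216 and 1561 late, again without overlap (log2 difference 1.30, SE 0.56, adjusted p = 0.101). Those of Fga were 2826, 2497, 6014 and 3704 early and 2676, 1441, 1561 and 1432 late, overlapping in 1 late library (1.05, SE 0.51, adjusted p = 0.145). In limma's fit of only the 16 PHx libraries the same differences had SE 0.38 and an adjusted p of 0.0224 for Fgg, SE 0.36 and 0.0213 for Fgb, which were then called, and SE 0.42 and 0.0886 for Fga. In each submission alone all 3 chains were on the higher side, Fgg by 1.62 and 1.09, Fgb by 1.21 and 1.39 and Fga by 1.01 and 1.08. Rescaling to the same sum left the signs and gave 0.87, 0.81 and 0.56 for Fgg, Fgb and Fga. Of 11 acute-phase reference genes outside the 44, 2 were higher early (Itih3 and Itih4), with a median difference of 1.66.

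**Figure D4:**
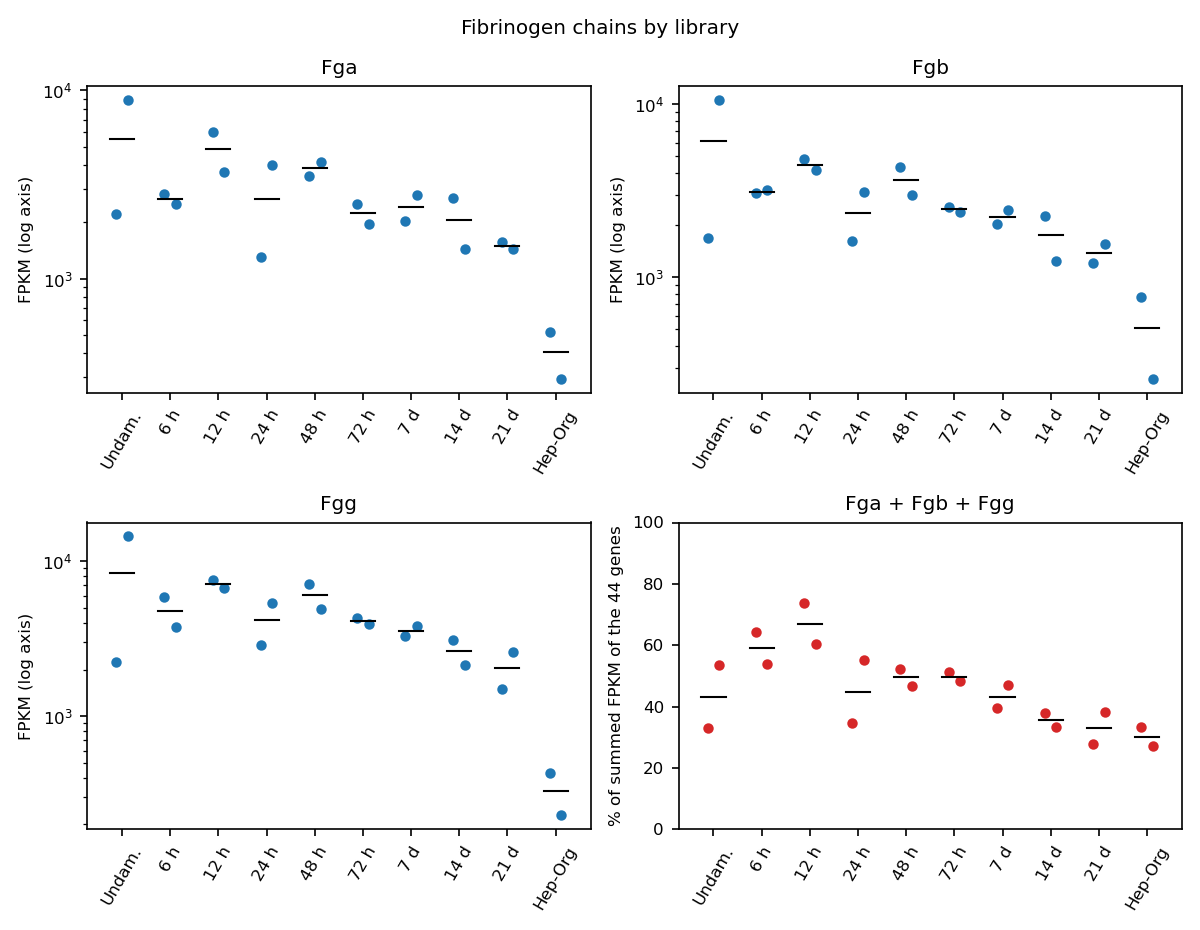
FPKM (log axes) of Fga, Fgb and Fgg in each library (blue points, lines are means of the 2 libraries) and the summed FPKM of the 3 chains as a percentage of the summed FPKM of all 44 genes (red points, axis from 0). The share, chosen after the values were seen, is 53.7% to 73.8% in the 4 libraries of 6 and 12 h and 27.8% to 38.1% in the 4 of 14 and 21 d. It is 55.3% in replicate 2 of 24 h, 53.5% in undamaged replicate 2 and 52.2% in replicate 1 of 48 h. The share also depends on the rest of the 44 genes, which sum to 6513 to 9598 FPKM early and 9049 to 13099 late. Undamaged replicate 2 has the highest levels of all 3 chains.

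The 3 middle times, 48 h, 72 h and 7 d (6 libraries), were compared with 14 and 21 d (4 libraries). Only C6 and C8b of the 44 genes were called, both lower, where 0.395% of all tested genes were lower. None of the 44 was called higher (0.281% of all). At an unadjusted p below 0.05 in limma, 4 of the 44 were lower and 1, Tfpi, higher. The share of all tested genes at that threshold was not counted. C6 was at a lowest of 4.17, a median of 11.3 and a highest of 18.7 FPKM at the middle times and at 82.2, 71.01, 144 and 83.2 late (log2 difference -3.03, SE 0.38, adjusted p = 0.00135). This was 8.54-fold lower in mean FPKM, and C6 was called whichever library was left out and under all 6 other settings. C8b was at a lowest of 69.5, a median of 87.8 and a highest of 122 FPKM against 209, 203, 261 and 212 late (log2 difference -1.27, SE 0.23, adjusted p = 0.0234), a level like that of 6 and 12 h, and its call was lost without any 1 of 7 of the 10 libraries (replicate 2 of 48 h, replicate 1 of 72 h, replicate 2 of 7 d and each of 14 and 21 d). Over the middle times C8b was at 122 and 86.6 (48 h), 69.5 and 100.4 (72 h), 89.00 and 84.3 (7 d). The middle libraries lay entirely below the late ones for C2, C6, C8b and C9 (4 genes, 4.05% of all tested) and entirely above for Fgg (1 gene, 2.43%). The median difference of the 44 genes was -0.10. All 6 middle libraries have the female pattern and all 4 late ones the male pattern, so that sex pattern and time cannot be told apart for C6 and C8b. The mitochondrial share of reads was 7.58% to 23.7% in the middle libraries.

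Against undamaged liver the complement and coagulation genes were lower at every time in the median, with log2 differences of -1.60 and -1.55 (6 and 12 h), -0.97 (24 h), -0.77 and -1.24 (48 and 72 h), -0.84 (7 d), and -0.78 and -0.75 (14 and 21 d), where the medians of all tested genes were within 0.05 of 0. These 8 comparisons share the same 2 undamaged libraries. Those 2 differed strongly in the genes described here: 40 of 44 were higher in replicate 2, by a median ratio of 2.12, 23 of them by more than 2-fold. Of 12270 tested genes above 0 in both, 6223 were higher in replicate 2, 2464 by more than 2-fold, and the median ratio was 1.01. The deposited FPKM sums of replicates 1 and 2 differed too, at 469342 and 988797. The 44 genes made up 3.97% and 6.43% of these sums. The largest ratio among the 44 was that of Cfp, 3.79 and 52.6 FPKM in replicates 1 and 2, and Fgg was at 2246 and 14494. Replicate 2 also held the acute-phase transcript Saa1 at 20927 FPKM against 19.9, and Kupffer cell and macrophage markers summing to 1046 FPKM against 40.3. The mitochondrial share of reads was 8.81% and 12.5% in the undamaged pair. Their part in these differences was not tested. Rescaling to the same sum moved the median of the 44 genes to -0.04 at 7 d, -0.05 at 14 d and -0.11 at 21 d, and that of all tested genes to 0.46, 0.39 and 0.32, so that the 44 genes stayed below all genes in the median under this scaling too.

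At 6 h, 18 of the 44 were called lower than undamaged liver and none higher, where 6.29% of all tested genes were lower and 4.62% higher. At 12 h it was 9 lower (2.15% of all) and none higher (0.935%). The 18 were 5 of 8 classical and lectin activators (C2, C1s1, C1ra, Mbl2, Masp2), Cfb, 5 of 6 terminal genes (all but C8g), Cfi, F7, F9, F13b, Serpinc1, Serpind1 and Plg, with log2 differences of -3.34 (Serpind1) to -1.45 (C2). The 6 h libraries lay below both undamaged ones for 35 of the 44 and above both for none, beside 25% and 24.9% of all tested genes. No gene of the contact pathway or of fibrinogen was called at either time. Without undamaged replicate 2 the number at 6 h was 7 and without replicate 1 of 6 h it was 4, and the 4 genes called in every such fit and under every other setting were Cfb, C8b, F13b and Serpind1. At 12 h the number was 1 without replicate 1 of 12 h, 4 without undamaged replicate 2 and 14 without undamaged replicate 1, and 18 without the term for submission. Cfb was at 3.54 and 4.001 FPKM in undamaged liver, where the 2 libraries were close, and at 0.200 and 0.238 at 6 h and 0.272 and 0.136 at 12 h (at 6 h log2 difference -1.95, SE 0.31, adjusted p = 0.00386).

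From 24 h on few of the 44 genes were called against undamaged liver. At 24 h, 14 d and 21 d none was, where limma called 0% of all tested genes in either direction. At an unadjusted p below 0.05, 18 of the 44 were lower at 24 h, 4 at 14 d and 10 at 21 d, and none was higher. The share of all tested genes at that threshold was not counted, so these counts have no background beside them. They also rest on the same 2 undamaged libraries, which differed from each other. Voom on the recovered reads called none at these times, and without the term for submission 2 were called at 24 h. At 48 h C6 and C8b were lower (0.266% of all tested genes were) and none higher (0.144%). At 72 h C6, C8b and Masp2 were lower (0.524%) and none higher (0.365%), and at 7 d again C6 and C8b lower (0.19%) and none higher (0.236%). C6 differed from undamaged liver by -3.75 at 48 h, -3.67 at 72 h and -3.95 at 7 d. None of these calls held in every fit with 1 library left out: the number at 48 h and at 7 d was 0 without undamaged replicate 2 and without replicate 1 of the time, at 48 h also without replicate 2, and at 7 d it was 1 without replicate 2.

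In Hep-Org nearly the whole set was low. Against liver at 14 and 21 d, 39 of the 44 genes were lower and 1, Cfb, was higher, where 13.4% of all tested genes were lower and 11.4% higher. Against undamaged liver 39 were lower (13.2% of all tested genes) and none higher (10.3%). The median difference was -2.92 on the log2 scale from 14 and 21 d and -3.59 from undamaged liver, and the medians of all tested genes were -0.02 and -0.03. Both Hep-Org libraries lay below all 4 late ones for 41 genes and above for 1, beside 32.9% and 33% of all tested genes. The late libraries are the ones already used in the comparisons above. Expressed as mean FPKM in Hep-Org over mean FPKM at 14 and 21 d, 5 genes were below 1%, 13 between 1% and 10%, 22 between 10% and 50%, and 4 at 50% or more. The deposited FPKM sums of both Hep-Org libraries, 184765 and 167676, were below those of all 18 liver libraries. Rescaling to the same sum raised the median of all tested genes by 0.96 from 14 and 21 d. It left 28 of the 44 lower and 1 higher, beside 8.05% and 45.6% of all tested genes. The calls lost were those of C2, C1ra, Cfi, Serping1, F12, Kng2, F7, Fga, Serpind1, Serpinf2 and Cpb2.

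**Figure D5:**
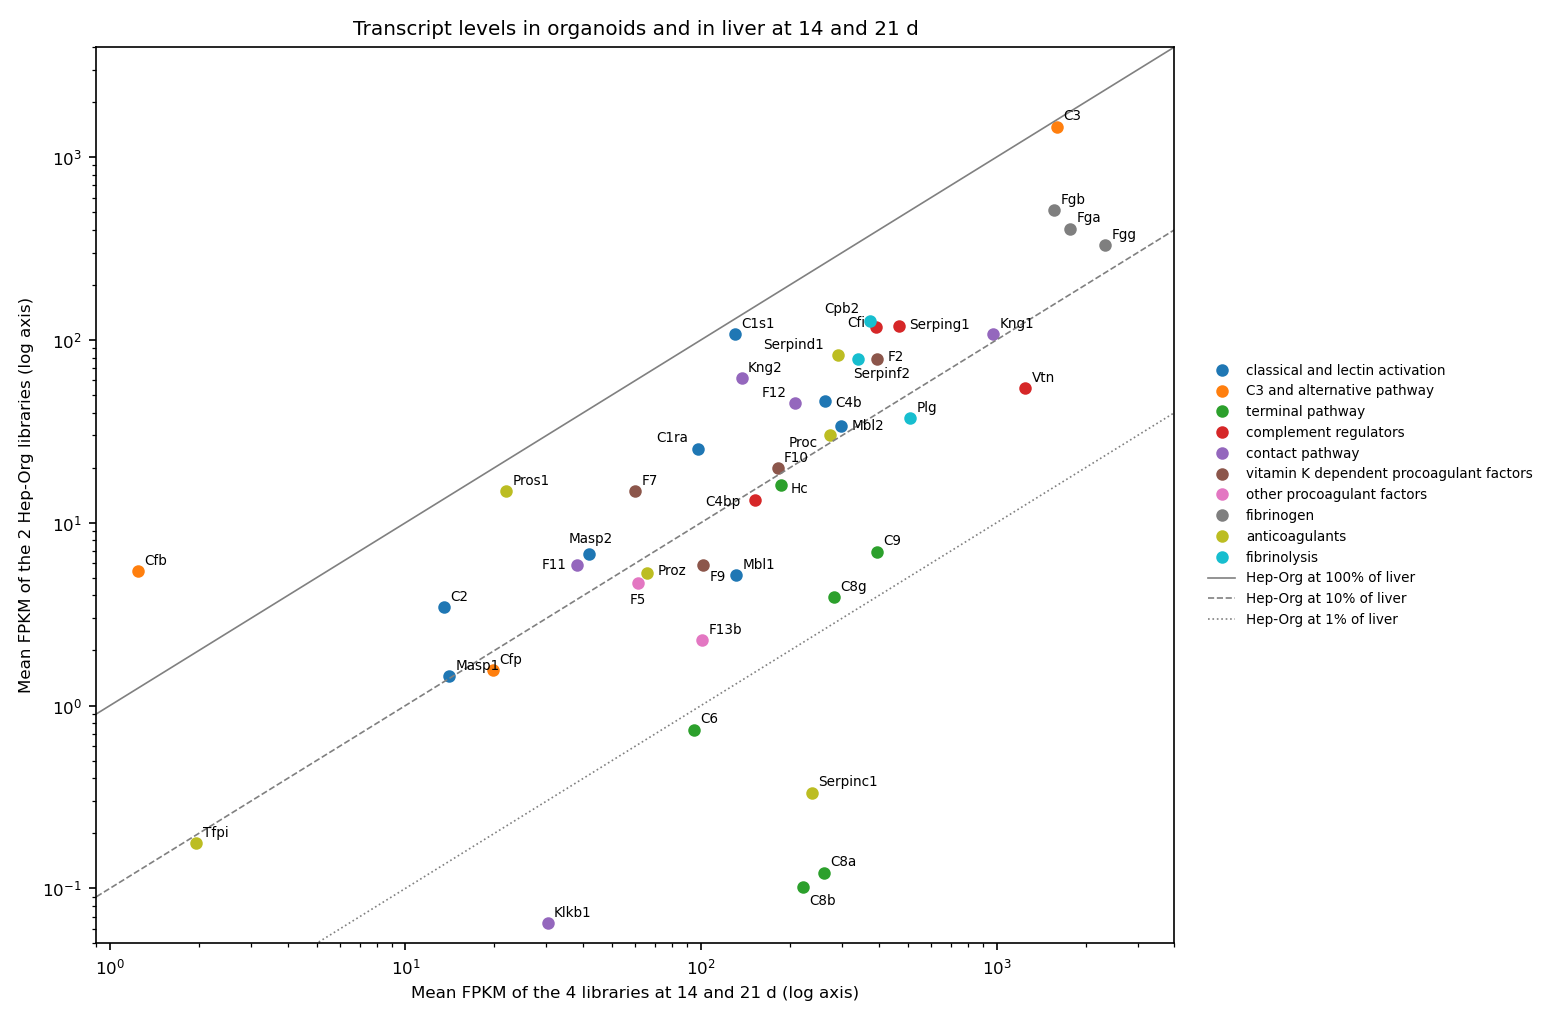
Mean FPKM of each of the 44 genes in the 2 Hep-Org libraries against the mean of the 4 libraries of 14 and 21 d (both log axes), coloured by cascade, with lines at 100%, 10% and 1% of the liver level. C6, C8a, C8b, Klkb1 and Serpinc1 lie under the 1% line, C3 lies close to the 100% line and Cfb above it.

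The terminal pathway had the lowest median of the 10 cascade groups, -5.87, and all 6 of its genes were called. C8b was at 0.189 and 0.0154 FPKM in the 2 Hep-Org libraries (21 and 2 recovered reads) and at 209, 203, 261 and 212 at 14 and 21 d (log2 difference -7.66, SE 0.32, adjusted p = 4.19e-08). C8a was at 0.195 and 0.0486 FPKM (31 and 9 reads) and 0.0466% of the late mean. With so few reads the fitted differences of these genes depend on the 1 added to FPKM. C8g, C9 and C6 had differences of -5.93, -5.82 and -5.75, and Hc, whose protein starts the pore, was the least reduced at -3.42 (SE 0.37, adjusted p = 2.34e-05).

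Upstream of the pore, 7 of 8 classical and lectin activators were lower. The largest difference by its test was that of Mbl1, at 3.43 and 6.88 FPKM in Hep-Org and 140.3, 146, 141 and 98.8 at 14 and 21 d (log2 difference -4.48, SE 0.47, adjusted p = 1.80e-05). C1s1 was the one not called, with 75.9 and 139 FPKM in Hep-Org, the first below and the second inside the late range of 144, 119, 150.4 and 109 (log2 difference -0.34, SE 0.39, adjusted p = 0.525). Mbl2, C4b, Masp1, Masp2, C1ra and C2 had differences of -3.10 to -1.71.

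Around C3 the picture differed from gene to gene. C3 was at 1953 and 979 FPKM in Hep-Org and 2691, 1119, 1558 and 1014 at 14 and 21 d, overlapping, with a log2 difference of -0.10 and a standard error of 0.60 (adjusted p = 0.911). Cfb was at 5.12 and 5.70 FPKM in Hep-Org, above all 4 late libraries at 1.58, 0.792, 2.06 and 0.548 (log2 difference 1.55, SE 0.27, adjusted p = 8.96e-04), and 4.35-fold higher in mean FPKM. Undamaged liver, at 3.54 and 4.001, was nearer to Hep-Org, and there Cfb was not called (log2 difference 0.43, adjusted p = 0.311). Cfp was lower than at 14 and 21 d at -2.99 (adjusted p = 0.0123), a call lost without either Hep-Org library.

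All 4 complement regulators were lower in Hep-Org. Vtn was at 50.4 and 59.00 FPKM against 1292, 1368, 1205 and 1133 late, 4.38% of the late mean (log2 difference -4.50, SE 0.48, adjusted p = 2.27e-05). C4bp followed at -3.46, and Serping1 and Cfi differed least, by -1.96 and -1.71, and both calls were lost on rescaling to the same sum. The Serping1 call was also lost without replicate 1 of 14 d, replicate 1 of 21 d or Hep-Org replicate 2. The Cfi call was also lost without Hep-Org replicate 1.

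Each of the 5 contact pathway genes was lower. Klkb1 was at 0.118 and 0.0112 FPKM (27 and 3 recovered reads) against 31.3, 26.6, 29.9 and 33.4 late (log2 difference -4.90, SE 0.66, adjusted p = 1.32e-04). F11 was at 11.1 and 0.658, the 2 Hep-Org libraries being far apart (log2 difference -3.11, SE 0.62, adjusted p = 0.00203). Kng1 and F12 differed by -3.35 and -2.16. Kng2 had -1.23 (adjusted p = 0.0461), which was 0.014 on rescaling to the same sum. The Kng2 call was also lost without replicate 1 of 14 d, either library of 21 d or Hep-Org replicate 2.

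The procoagulant genes were lower as a group, 4 of 4 vitamin K dependent ones and both others. F9 was at 7.06 and 4.72 FPKM in Hep-Org and 126, 78.00, 96.8 and 107 at 14 and 21 d (log2 difference -3.91, SE 0.35, adjusted p = 4.53e-06). F13b was at 2.43 and 2.14 against 92.4, 91.7, 101 and 119 (log2 difference -4.95, SE 0.31, adjusted p = 3.08e-07), with its Hep-Org level 2.27% of the late mean. Differences of the rest were -3.42 for F5, -3.16 for F10, -2.37 for F2 and -1.94 for F7.

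Fibrinogen remained among the most abundant of the 44 transcripts in Hep-Org in spite of lower levels. Fgg was at 428 and 229 FPKM against 3115, 2141, 1492 and 2588 at 14 and 21 d (log2 difference -2.85, SE 0.70, adjusted p = 0.00709) and Fga at 520.0 and 293 against 2676, 1441, 1561 and 1432 (log2 difference -2.13, SE 0.65, adjusted p = 0.0232). The Fga call was lost without either Hep-Org library, without replicate 1 of 14 d and without that of 21 d. The Fgg call was lost without Hep-Org replicate 2. Fgb was at 764 and 258 and was not called (log2 difference -1.77, SE 0.71, adjusted p = 0.0703). After C3, the 3 chains had the next highest Hep-Org means.

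Of 6 anticoagulants 5 were lower, and they were lower by very different amounts. Serpinc1 was at 0.268 and 0.400 FPKM in Hep-Org (100 and 174 recovered reads) against 255, 236, 214 and 248 late, 0.140% of the late mean (log2 difference -7.49, SE 0.45, adjusted p = 2.55e-07). Serpind1, for the other thrombin inhibitor of the serpin family, was at 91.4 and 74.2 against 341, 235, 305 and 279.6, 28.5% of the late mean (log2 difference -1.80, SE 0.45, adjusted p = 0.00783). Pros1, for the protein S cofactor, was not called at 14.9 and 14.97 against 28.04, 18.3, 20.7 and 20.5 (log2 difference -0.52, adjusted p = 0.366). Proc, Proz and Tfpi had differences of -3.38, -3.38 and -1.31. Tfpi was at 0.142 and 0.212 FPKM in Hep-Org, near the floor. The Tfpi call was lost without either Hep-Org library and without replicate 1 of 14 d, and the Serpind1 call without Hep-Org replicate 2.

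The 3 fibrinolysis genes were lower as well. Plg was at 51.05 and 23.96 FPKM against 608, 452, 564 and 419.7 late (log2 difference -3.81, SE 0.45, adjusted p = 4.91e-05). Serpinf2 and Cpb2 differed by -2.26 and -1.55. The Serpinf2 call was lost without Hep-Org replicate 2. The Cpb2 call was lost without either Hep-Org library, replicate 1 of 14 d or either library of 21 d.

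Markers of cell identity moved with these differences. Of 8 hepatocyte markers 7 were lower in Hep-Org than at 14 and 21 d (summed 808.8 to 4133 FPKM against 38666 to 75056), with Alb at 3132 and 86.4 FPKM, and all 5 tested of 6 biliary markers were higher (summed 2729 to 4444 FPKM against 5.39 to 28.2, most of the sum in Hep-Org being Spp1 at 4416 and 2695), of which Krt7 passed the filter only through Hep-Org and so had to differ. Kupffer cell and macrophage markers summed to 0.152 to 3.57 FPKM, with Vsig4 listed at 0 in both Hep-Org libraries, and endothelial markers to 0.249 to 0.371. The mitochondrial share of reads was 3.17% and 3.26% in Hep-Org. The part of these differences in the lower levels of the 44 genes was not tested. Of the 40 genes called against 14 and 21 d, 30 were called whichever library was left out, and 26 of those also under every other setting.

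Other genes of the 2 cascades were followed by lists, of which single genes are named here after their values were seen. Of 21 tested complement genes outside the 44, 2 were higher at 6 and 12 h than at 14 and 21 d and 2 lower (6.7% and 7.07% of all tested genes, as above). Colec10, for a collectin of the lectin pathway, was among the lower (-1.56, adjusted p = 0.00184), and C5ar1, for the C5a receptor of leukocytes, among the higher (1.61, adjusted p = 0.0122). In Hep-Org 13 of the 21 were lower and 1 was higher, beside 13.4% and 11.4% of all tested genes. The higher one was the terminal pathway regulator gene Clu (1.66, adjusted p = 0.0284), at 2357 and 1294 FPKM against 578, 591, 559 and 482.

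Coagulation and fibrinolysis genes outside the 44, many of which are made by endothelium, platelets or stressed epithelium, moved in both directions. Of 22 tested, 1 of which passed the filter only through the early libraries and was not among those called, 7 were higher early and 2 lower. The shares of all tested genes were 6.7% higher and 7.07% lower. In Hep-Org 8 were higher and 6 lower, beside 11.4% and 13.4% of all tested genes against 14 and 21 d. But 2 of the 8, Plat and F2rl1, passed the filter only through the Hep-Org libraries and so had to differ. Plat, for tissue plasminogen activator, was at 13.2 and 23.1 FPKM in Hep-Org and at 0.0543, 0.0922, 0 and 0.0451 at 14 and 21 d. Hrg, for the plasma protein that binds plasminogen and heparin, was at 0.505 and 0.453 against 668, 340.1, 548 and 426 (log2 difference -8.35, SE 0.39, adjusted p = 6.43e-08). Of 7 genes of the vitamin K cycle and of factor secretion, Vkorc1, for the enzyme that regenerates vitamin K and is blocked by warfarin, was lower both at 6 and 12 h (8.61, 5.47, 8.005 and 4.72 FPKM against 15.3, 25.1, 15.8 and 32.7, log2 difference -1.56, adjusted p = 0.0128) and in Hep-Org (1.39 and 4.12, log2 difference -2.67, adjusted p = 0.00154). Vkorc1 was picked from the 7 after the values were seen, and its result does not stand for the other genes of that list.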

How the data were processed

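The authors deposited FPKM as 1 table of 54532 genes in 20 libraries, and every library was used. The submitters' processing notes name HISAT2 2.0.5 and mm10; counting, strandedness, annotation and scaling between libraries were not given in the sources used here. Symbols (54409 IDs) and positions came from GENCODE M21. FPKM times exon length fell near whole reads (97.9% to 98.7% of values up to 20 reads, tolerance 0.05), and these recovered reads were 0.478 to 1.94 times those the FPKM scale implies.

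The 13162 genes at FPKM of 1 or more in 2 or more libraries were tested with limma 3.58.1 (R 4.3.3) on log2(FPKM + 1), a scale that understates changes of low genes. One fit held all 20 libraries, group means and a submission term (trend and robust options), in which replicate 2 of the PHx times (8 libraries) stood for the second submission that the series text describes. Calls needed a Benjamini-Hochberg adjusted p below 0.05 over all tested genes and a log2 difference, or range over time, of 1 or more, in 13 comparisons. Replicate numbers gave no other pairing (28 pairs of PHx times, correlation of deviations -0.38 to 0.47, 4 over 0.1). The script was tested on simulated data. The 44 genes and the lists were chosen with earlier results of these data known. Per cascade, library values are given for the gene with the largest F over time and that with the largest statistic in Hep-Org against 14 and 21 d, and others are named mainly where called. Alternatives were a pseudocount of 0.1, no filter, rescaling to the same sum or by median of ratios, no submission term, voom on recovered reads (13157 genes) and leaving out each library, with a fit of only the 16 PHx libraries added after the data were seen.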

Additional observations from a re-analysis of the deposited data

How the results depend on the processing

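Numbers of the 44 genes called changed with the libraries used. With 1 library left out they were 3 to 4 for the time course, 4 to 23 at 6 h, 1 to 14 at 12 h, 0 to 0 at 24 h, 0 to 2 at 48 h, 0 to 8 at 72 h, 0 to 2 at 7 d, 0 to 0 at 14 d and 0 to 0 at 21 d against undamaged liver. They were 8 to 17 for 6 and 12 h and 1 to 2 for 48 h, 72 h and 7 d against 14 and 21 d, and 34 to 41 and 31 to 40 for Hep-Org against undamaged liver and 14 and 21 d. At 72 h the count was 8 without undamaged replicate 1, 0 without replicate 1 and 1 without replicate 2 of 72 h, in place of 3.

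Without the replicate block, that is without the term for submission, 18 genes were called at 12 h in place of 9, 2 at 24 h in place of 0 and 7 at 72 h in place of 3; the other counts stayed within 1.5 times, with 6 in place of 4 for the time course. Rescaling to the same FPKM sum gave 8 for the time course, 26 for 6 and 12 h, 1 for 48 h, 72 h and 7 d against 14 and 21 d, and 2 at 12 h and 0 at 48 h, 72 h and 7 d against undamaged liver. Of all tested genes it called 13% lower and 3.21% higher for 6 and 12 h, and 0.372% and 0.296% for the middle times. Against undamaged liver it called 0.319% lower and 0.274% higher at 12 h and 0.0988% each way at 48 h. At 72 h the shares were 0.122% and 0.653%, and at 7 d 0.0836% and 0.319%. The added fit of only the 16 PHx libraries gave 5 for the time course and 17 for 6 and 12 h, 2 of them higher, beside 8.51% and 14.5% of all genes tested in it. No filter gave 5 at 12 h and 0 at 48 h. A pseudocount of 0.1 gave 1 at 48 h, 1 at 7 d and 1 for 48 h, 72 h and 7 d against 14 and 21 d. Voom gave 0 at 48 h, 1 at 72 h, 1 at 7 d and 1 for 48 h, 72 h and 7 d against 14 and 21 d. Why these counts moved was not tested. Kng2 in Hep-Org turned to 0.19 against undamaged liver and 0.014 against 14 and 21 d on rescaling to the same sum. Over the alternatives other than that added fit, of 1554 recomputed differences of called genes, 1311 stayed called in the same direction, 241 were no longer called (158 of 744 with a library left out, 83 of 810 under another setting) and 2 reversed. That rescaling moved the median of all tested genes by 1.37 for Hep-Org against undamaged liver. Precision is limited by 2 libraries per group and by the genes with few reads in Hep-Org.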

Other observations

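Ratios between related transcripts within a library do not depend on how libraries were scaled to each other; those below were chosen after the values were seen. The FPKM ratio of Serpind1 to Serpinc1, the genes of the 2 thrombin-inhibiting serpins, was 0.191 to 0.323 in the 4 libraries of 6 and 12 h, 0.995 to 1.42 in the 4 of 14 and 21 d, and 341 and 186 in Hep-Org. The ratio of Mbl2 to Mbl1, the genes of the mannose-binding lectins, was 0.216 to 0.851 at 6 and 12 h, 2.94 to 4.01 at 72 h and 7 d, and 1.86 to 2.50 at 14 and 21 d. C6 over C9, both of the membrane pore, was 0.0255 to 0.0727 in the 6 libraries from 48 h to 7 d and 0.176 to 0.429 in the other 10 PHx libraries. Those 6 libraries have the female transcript pattern, so that in these ratios time and sex pattern cannot be told apart.

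Cfd, for complement factor D, the alternative pathway protease that fat tissue secretes, was at 342 FPKM in replicate 2 of 6 h and at most at 5.08 in every other library. The same library held the adipocyte transcripts Adipoq at 70.4 FPKM and Plin1 at 4.28. These genes were noticed after the values were seen.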
